A study of Mus musculus with 6 samples.

Results

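The 30 Wnt pathway genes described here were followed in Thy1-sorted cells of mouse retinas whose optic nerve had been crushed. They were taken from the deposited table by gene name: the Wnt ligands, the R-spondins, the secreted Frizzled-related proteins, the Frizzled receptors, the co-receptors and receptors Lrp5, Lrp6, Lgr4, Ror1 and Ryk, the ligase Znrf3, and the cytoplasmic genes Dvl1, Dvl2, Dvl3, Axin1, Axin2, Apc, Gsk3b and Ctnnb1. Dkk3 was left out by the rule. The 30 genes stand among 15450 named genes and hold 54 transcript rows. The Tcf7 family, Lef1, Rnf43, Lgr6 and Ror2 were not among these named genes, so they were not analysed here.

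One group of eyes had received AAV-Sox11, an adeno-associated virus carrying the transcription factor gene Sox11. The other had received AAV-Control, which carried PLAP, an alkaline phosphatase. Mice of both groups were about 3 to 4 weeks old at the start, carried the virus for 2 weeks and had the optic nerve crushed 3 days before the tissue was taken, so the injury is shared by all 6 libraries. Each library came from 3 retinas of 3 animals, sorted for the surface protein Thy1 and for live cells, and each group had 3 libraries, called A, B and C. No source used here gives the strain, the viral promoter or the share of cells that took up the virus.

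Wnt proteins are secreted ligands that bind Frizzled receptors. In the canonical branch the co-receptors Lrp5 and Lrp6 and the scaffold Dishevelled (Dvl) relay the signal, and the destruction complex of Axin, Apc and Gsk3b then stops degrading beta-catenin (Ctnnb1), which enters the nucleus and works with TCF/LEF factors. In other branches Wnt5a and related ligands act through Ror and Ryk receptors on cell polarity and axon growth. R-spondins bind Lgr receptors and spare Frizzled proteins from removal by Znrf3, while secreted Frizzled-related proteins (Sfrp) bind Wnt ligands outside the cell. In the retina the pathway is known for roles in patterning, in vessel growth through Fzd4 and Lrp5, and in axon guidance through Fzd3.

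Promoter sequences are shown for the 3 of the 6 members with the smallest unadjusted p that have an entry in the RefSeq table (build GRCm38.p6), since these genes lie at both ends of the range of fold changes described further on. Each window runs from 250 bases before the annotated transcription start to 50 after it, 5′ to 3′ on the strand of the gene, and the capital letter marks the first transcribed base. The windows are chr2:151842677-151842976 for Rspo4, chr3:83766071-83766370 for Sfrp2 and chr6:22287977-22288276 for Wnt16, all on the plus strand.
Rspo4: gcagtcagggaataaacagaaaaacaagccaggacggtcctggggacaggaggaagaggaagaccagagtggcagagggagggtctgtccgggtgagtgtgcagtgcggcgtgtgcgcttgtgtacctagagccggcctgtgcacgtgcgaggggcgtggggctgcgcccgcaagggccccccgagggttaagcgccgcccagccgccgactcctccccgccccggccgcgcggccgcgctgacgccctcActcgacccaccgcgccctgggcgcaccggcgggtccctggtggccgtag
Sfrp2: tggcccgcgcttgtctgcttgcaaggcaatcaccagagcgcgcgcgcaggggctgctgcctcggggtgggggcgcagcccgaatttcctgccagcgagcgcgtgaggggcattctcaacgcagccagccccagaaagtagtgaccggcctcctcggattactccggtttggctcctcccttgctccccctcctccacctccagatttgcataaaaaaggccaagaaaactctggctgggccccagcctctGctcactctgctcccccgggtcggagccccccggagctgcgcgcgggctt
Wnt16: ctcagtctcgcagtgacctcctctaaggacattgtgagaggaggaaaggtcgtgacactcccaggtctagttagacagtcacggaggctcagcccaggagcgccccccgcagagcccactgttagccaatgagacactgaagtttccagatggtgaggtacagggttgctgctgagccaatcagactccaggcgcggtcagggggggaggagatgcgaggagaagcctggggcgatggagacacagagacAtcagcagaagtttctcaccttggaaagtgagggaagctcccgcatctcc
A search on both strands for CTTTGAT and CTTTGAA, forms of the TCF/LEF core, and for AACAAT, a core bound by SOX factors, found 0 matches in these 3 windows. It also found 0 in all 21 windows that the table held for 20 of the 30 members. Other forms of the TCF/LEF and SOX cores were not searched for, so the result holds for these exact strings only. Over the 32851 promoter windows of the table, 3.73% held CTTTGAT, 5.14% CTTTGAA and 10.7% AACAAT. The GC content was 71% for Rspo4, 66% for Sfrp2 and 58% for Wnt16.

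Deposited whole numbers summed to between 10747985 and 11546892 per library. They are adjusted values and not read counts, because 1 of the 5 directions in which 6 libraries can differ held no spread beyond rounding (SD 9.48e-05 natural log units, against 0.098 for the next). Spread between replicates along that direction is missing, and p-values here may be too small for that reason. Sox11 itself had 179, 234 and 284 in AAV-Sox11 A, B and C, against 131, 111 and 100 in AAV-Control A, B and C, a log2 fold change of 1.003 ± 0.20 (SE, limma adjusted p = 0.0504). The labels call the cells retinal ganglion cells. Of 17 ganglion cell markers 16 were measured, with sums of 12181 to 15254 in AAV-Sox11 libraries and 11896 to 15112 in AAV-Control libraries. In limma 1 of these 16 was called higher (Stmn2) and 2 lower (Ebf1 and Ebf3) at an adjusted p of 0.05. Over all genes, 0.796% were called higher and 1.52% lower. Between the groups, 8 of the 16 did not overlap, 6 of them higher and 2 lower in AAV-Sox11 libraries, against 30.7% of all genes. Rod markers (10 of 10) had larger sums, 26199 to 47532 in AAV-Sox11 libraries and 42126 to 65733 in AAV-Control libraries, so the sort held other cell types. AAV-Control A stood apart in its pericyte genes, which summed to 16243 there and to between 3199 and 6561 in the other 5 libraries. Values are for a mixed sort, and fewer cells of a type cannot be told apart from less RNA per cell.

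The comparison asks which Wnt pathway transcripts differ between AAV-Sox11 and AAV-Control libraries, with the virus given before the injury. None of the 30 members passed an adjusted p of 0.05 in limma: 0 were called higher and 0 lower, with adjusted p-values from 0.0770 to 0.996. Over all genes tested, 0.796% were called higher and 1.52% lower. An unadjusted p under 0.05 was found for 5 members, Rspo4 and Sfrp1 with higher values and Wnt5a, Lrp5 and Sfrp2 with lower values in AAV-Sox11 libraries, which is 16.7% of the members against 24.3% of all genes. The median log2 fold change of the members was -0.08, against 0.03 over all genes, with 11 members above 0 and 19 below. AAV-Sox11 and AAV-Control values were fully separate for 2 members that were higher and 7 that were lower in AAV-Sox11 libraries, 9 in all. Over all genes, 16.2% did not overlap in the higher and 14.4% in the lower direction. The members' share without overlap (30%) was near that of all genes (30.7%).

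**Figure D1:**
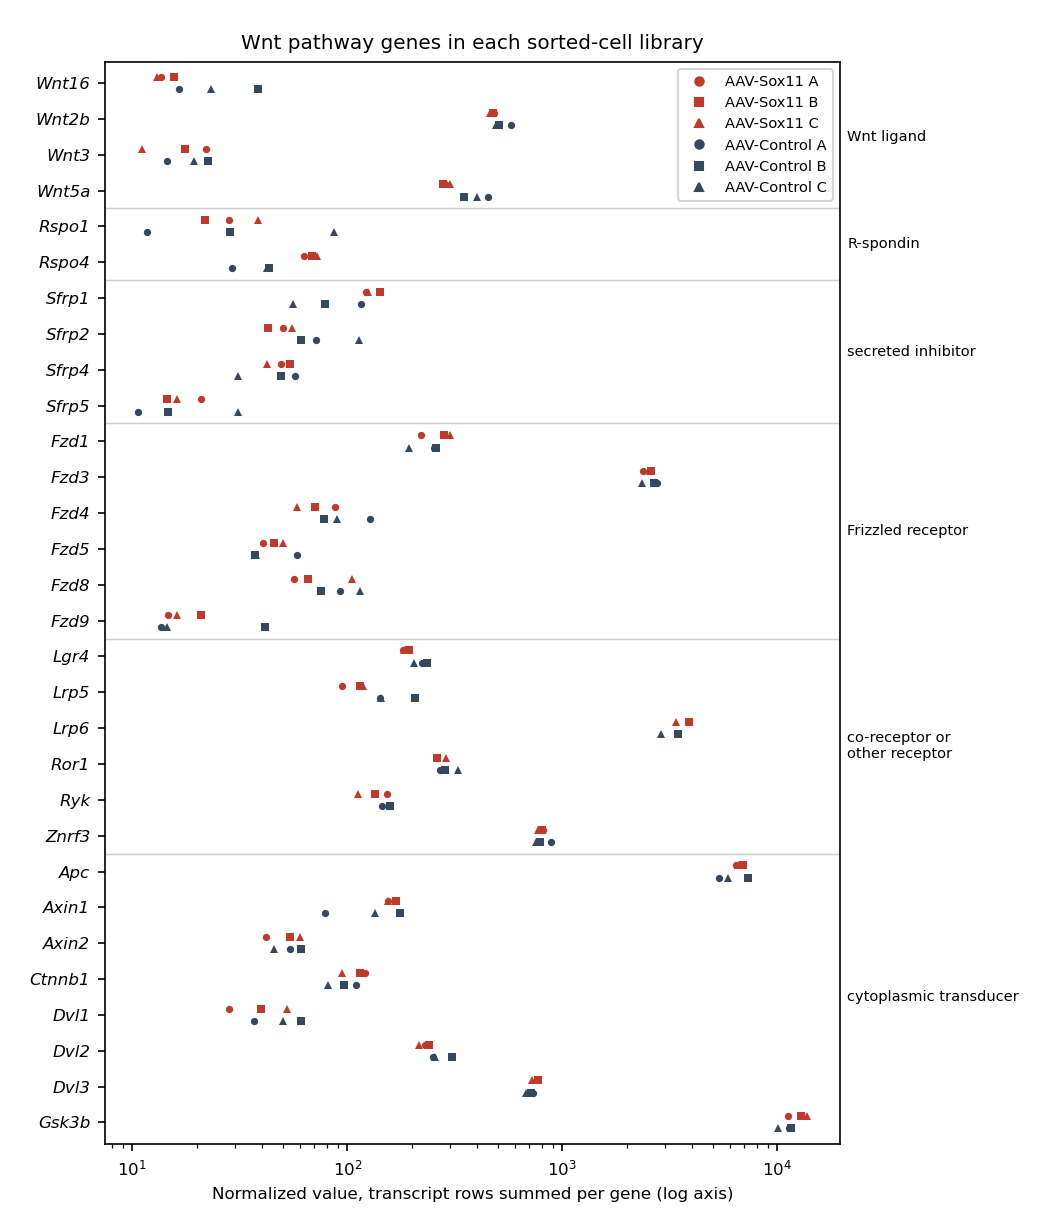
Normalized value of each of the 30 Wnt pathway genes (log axis) in each library, grouped by role, with AAV-Sox11 in red above AAV-Control in dark blue. Values run from 10.7 for Sfrp5 in AAV-Control A to 13672 for Gsk3b in AAV-Sox11 C, and for most genes the groups overlap.

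Among the 4 measured ligands, all had log2 fold changes below 0. Wnt5a, the ligand of non-canonical signalling that also repels growing axons, had 285, 279 and 300 in AAV-Sox11 A, B and C, against 450, 349 and 399 in AAV-Control A, B and C. Every AAV-Sox11 value lay below every control value, and the spread was wider among controls. Its log2 fold change was -0.46 ± 0.12 (SE, 95% interval -0.74 to -0.18), 1.38-fold lower in AAV-Sox11 libraries, with an adjusted p of 0.0773. Wnt5a passed in 1 of 19 alternative fits, without AAV-Control B (log2 fold change -0.56, adjusted p = 0.0485), and its adjusted p ranged from there to 0.351. The gene lies on chromosome 14 (28504750 to 28527448, plus strand), and the value rests on 1 protein-coding transcript row of 6 annotated. Gm2670 overlaps a Wnt5a exon from the opposite strand, and without a stated strand setting the value of Wnt5a may include its reads.

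Wnt2b, a canonical ligand of the peripheral retina, was the most abundant ligand, with 479, 478 and 461 in AAV-Sox11 libraries, against 579, 505 and 489 in AAV-Control libraries. The groups did not overlap, but the difference was small (log2 fold change -0.15 ± 0.10, adjusted p = 0.390). Wnt16 was near the bottom of the measured range, with 13.6, 15.6 and 13.1 in AAV-Sox11 libraries and 16.5, 38.2 and 23.2 in AAV-Control libraries. AAV-Control B was the highest, and all AAV-Sox11 values lay below the controls. Its log2 fold change was -0.76 ± 0.33 (95% interval -1.53 to 0.0046, adjusted p = 0.207), and it was -0.45 without AAV-Control B. Wnt3, a canonical ligand, had 16.9 ± 5.46 in AAV-Sox11 libraries and 18.8 ± 4.02 in AAV-Control libraries (SD, n = 3 each), with overlapping values.

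Rspo4, one of 2 measured R-spondins, had the highest log2 fold change of the members. It had 62.6, 68.5 and 72.4 in AAV-Sox11 A, B and C, against 29.1, 43.1 and 42.5 in AAV-Control A, B and C. All AAV-Sox11 values lay above all control values, and therefore also within each same-day pair. The log2 fold change was 0.83 ± 0.21 (SE, 95% interval 0.33 to 1.33), 1.78-fold, with an adjusted p of 0.0770 in limma. It ranged from 0.0637 to 0.349 over the alternative fits and passed in 0 of them. In the authors' deposited table the single Rspo4 row had a log2 fold change of 0.83 and a false discovery rate of 0.0394, where 6.83% of all rows were under 0.05. The gene lies on chromosome 2 (151842927 to 151874668, plus strand), and its promoter is the first sequence shown above. Rspo1, the other R-spondin, had 28.2, 21.8 and 38.2 in AAV-Sox11 libraries and 11.6, 28.4 and 86.9 in AAV-Control libraries. The controls spanned the AAV-Sox11 values on both sides, and the 95% interval of the log2 fold change ran from -1.61 to 1.40, the widest of the members.

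The secreted inhibitors did not move one way. Sfrp1 had 122, 141 and 125 in AAV-Sox11 libraries, against 116, 78.4 and 55.95 in AAV-Control libraries. The groups did not overlap, yet AAV-Control A came close to AAV-Sox11 A. The log2 fold change was 0.69 ± 0.26 (SE, adjusted p = 0.163) and ranged from 0.24 with the sex index as a covariate to 0.95 without AAV-Control A. Sfrp2 ran the other way, with 50.04, 42.6 and 55.3 in AAV-Sox11 libraries, against 71.8, 60.8 and 113 in AAV-Control libraries. AAV-Control C was the highest of the 6, and the log2 fold change of -0.68 ± 0.26 had an adjusted p of 0.166. It was -0.42 without AAV-Control C and -0.29 with the sex index as a covariate. Sfrp4 and Sfrp5 overlapped between the groups, with 48.4 ± 5.90 and 17.2 ± 3.28 in AAV-Sox11 libraries and 45.7 ± 13.5 and 18.8 ± 10.7 in AAV-Control libraries (SD, n = 3 each). Sfrp1 lies on chromosome 8 (23411502 to 23449632, plus strand) and Sfrp2 on chromosome 3 (83766321 to 83774316, plus strand).

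**Figure D2:**
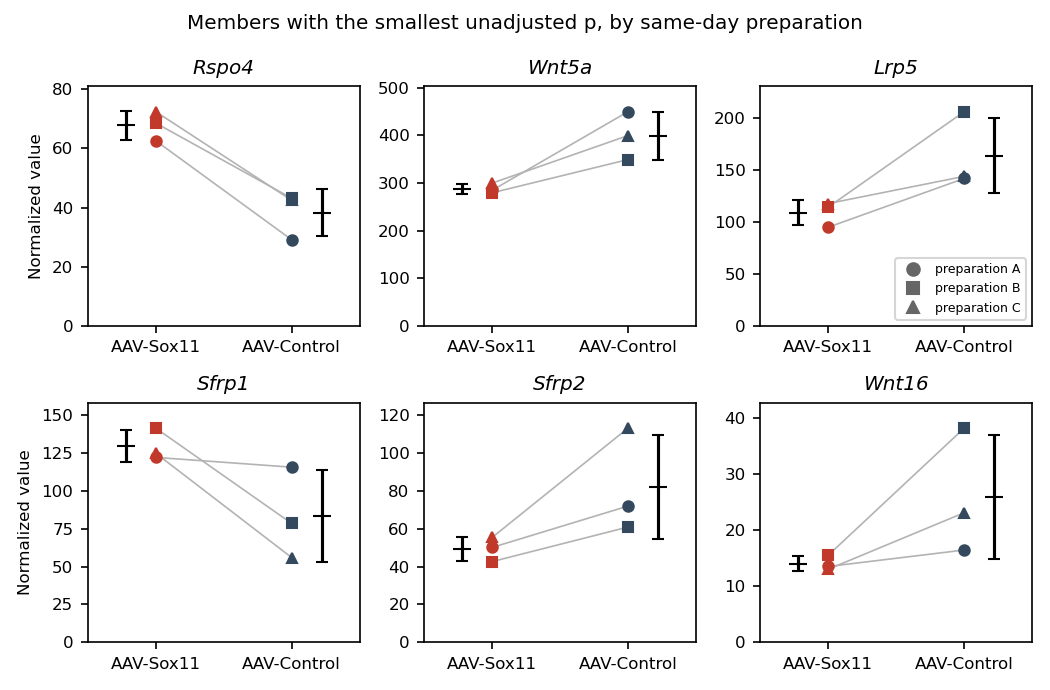
Normalized values of the 6 members with the smallest unadjusted p in the 3 AAV-Sox11 libraries (left) and the 3 AAV-Control libraries (right). Grey lines join libraries prepared on the same day, and the black marks give mean ± SD (n = 3). Rspo4 and Sfrp1 were higher and Wnt5a, Lrp5, Sfrp2 and Wnt16 lower in AAV-Sox11 libraries without overlap, and therefore in all 3 pairs.

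All 6 Frizzled receptors overlapped between the groups. Fzd3, a receptor of the planar polarity branch needed for axon tract formation, was by far the most abundant, with 2382, 2578 and 2564 in AAV-Sox11 libraries, against 2758, 2666 and 2344 in AAV-Control libraries. Its log2 fold change was -0.04 ± 0.09 with a 95% interval from -0.25 to 0.16, which is narrow. Fzd1 followed with 267 ± 41.0 in AAV-Sox11 libraries and 235 ± 35.7 in AAV-Control libraries (SD, n = 3 each). Fzd4, the receptor of Norrin in retinal vessels, had 87.6, 70.6 and 58.3 in AAV-Sox11 libraries, against 127, 77.5 and 89.7 in AAV-Control libraries. It was lower in each same-day pair, and its log2 fold change of -0.43 ± 0.24 had an adjusted p of 0.316. It was -0.22 without AAV-Control A. Endothelial markers were mostly unmeasured (3 of 11), and their sum was highest in AAV-Control A too (4955, against 1725 to 2398 in the other 5 libraries). The part of vessel cells in the Fzd4 values was not tested. Fzd8 had 56.3, 65.4 and 105 in AAV-Sox11 libraries, against 92.2, 75.5 and 115 in AAV-Control libraries, again lower in each pair (log2 fold change -0.35 ± 0.27, adjusted p = 0.462). Fzd5 and Fzd9 were low, at 45.5 ± 4.81 and 17.2 ± 3.22 in AAV-Sox11 libraries and 44.4 ± 12.02 and 23.1 ± 15.7 in AAV-Control libraries.

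The co-receptors Lrp5 and Lrp6, close relatives that both bind Wnt with Frizzled, had log2 fold changes of opposite sign. Lrp5 had 94.9, 114 and 118 in AAV-Sox11 libraries, against 142, 206 and 144 in AAV-Control libraries. All AAV-Sox11 values lay below all controls, and the log2 fold change was -0.57 ± 0.19 (SE, 95% interval -1.01 to -0.13, adjusted p = 0.130). Lrp6 was the more abundant, with 3862, 3892 and 3372 in AAV-Sox11 libraries, against 3395, 3463 and 2873 in AAV-Control libraries. It was higher in each same-day pair although the groups overlapped, with a log2 fold change of 0.20 ± 0.10 (adjusted p = 0.283). The difference between the changes of Lrp5 and Lrp6 was not tested. Lrp5 lies on chromosome 19 (3584828 to 3686564, minus strand), and only 48.6% of its summed value came from a row annotated as protein coding. The other Lrp5 row, annotated for nonsense-mediated decay, had a log2 fold change of -0.78 and a false discovery rate of 0.0891 in the authors' deposited table. The protein-coding row had -0.39 and a false discovery rate of 0.380 in the authors' deposited table.

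Lgr4, a receptor of R-spondins, had 181, 193 and 183 in AAV-Sox11 libraries, against 223, 235 and 204 in AAV-Control libraries. The groups did not overlap, and the log2 fold change was -0.24 ± 0.12 (adjusted p = 0.242). It was -0.11 when only protein-coding rows were used and -0.04 on the most abundant row. Znrf3, the membrane ligase that R-spondins and Lgr receptors counteract, had 797 ± 24.0 in AAV-Sox11 libraries and 810 ± 67.8 in AAV-Control libraries (SD, n = 3 each). Its 95% interval ran from -0.23 to 0.19 on the log2 scale. Ror1, a receptor tyrosine kinase that binds Wnt5a, had 270 ± 15.0 in AAV-Sox11 libraries and 294 ± 30.0 in AAV-Control libraries. Ryk, a Wnt receptor known for guiding axons, had 152, 135 and 113 in AAV-Sox11 libraries, against 146, 158 and 158 in AAV-Control libraries. Its groups overlapped, and its log2 fold change of -0.22 ± 0.15 (adjusted p = 0.413) turned to 0.28 when only protein-coding rows were used.

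In the cytoplasm, Gsk3b, the kinase that marks beta-catenin for degradation, was the most abundant member. It had 11204, 12936 and 13672 in AAV-Sox11 libraries, against 11349, 11577 and 10049 in AAV-Control libraries. The pairs B and C were higher with AAV-Sox11 and pair A was not, for a log2 fold change of 0.20 ± 0.10 (adjusted p = 0.283), which was -0.030 with the sex index as a covariate. Apc, the scaffold of the destruction complex, had 6438, 6923 and 6541 in AAV-Sox11 libraries, against 5378, 7275 and 5910 in AAV-Control libraries, with the controls on both sides. Axin1, the limiting scaffold, had 154, 168 and 154 in AAV-Sox11 libraries and 78.6, 176 and 134 in AAV-Control libraries. AAV-Control A was the low one, and the log2 fold change of 0.37 ± 0.28 went down to 0.05 without it. Ctnnb1, beta-catenin itself, had 121, 114 and 94.5 in AAV-Sox11 libraries, against 110, 96.1 and 81.0 in AAV-Control libraries. It was higher in each same-day pair, and the groups overlapped (log2 fold change 0.20 ± 0.18, 95% interval -0.21 to 0.62, adjusted p = 0.515).

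Axin2, a feedback inhibitor that beta-catenin signalling is known to switch on and that is often read as its output, had 41.7, 54.0 and 60.3 in AAV-Sox11 libraries, against 54.4, 60.8 and 45.3 in AAV-Control libraries. The values interleaved, and the log2 fold change was -0.05 ± 0.22 (adjusted p = 0.918). Its 95% interval, -0.55 to 0.46, leaves room for moderate change in either direction. Of the Dishevelled genes, Dvl2 had 229, 241 and 215 in AAV-Sox11 libraries, against 251.4, 306 and 256 in AAV-Control libraries, without overlap (log2 fold change -0.24 ± 0.12, adjusted p = 0.274). Dvl3 had 771, 769 and 725 in AAV-Sox11 libraries, against 732, 716 and 675 in AAV-Control libraries. It was higher in each same-day pair although the groups overlapped (log2 fold change 0.09 ± 0.08, adjusted p = 0.507), and the log2 fold change was -0.0013 on protein-coding rows only. Dvl1 had 40.0 ± 12.1 in AAV-Sox11 libraries and 49.3 ± 11.98 in AAV-Control libraries (SD, n = 3 each). Dvl1 and Dvl2 had no protein-coding row, so their values rest on rows annotated as retained introns or for nonsense-mediated decay. Exons of Dvl1 also overlap Tas1r3, those of Dvl2 Acadvl and those of Ctnnb1 Ulk4, each on the opposite strand.

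**Figure D3:**
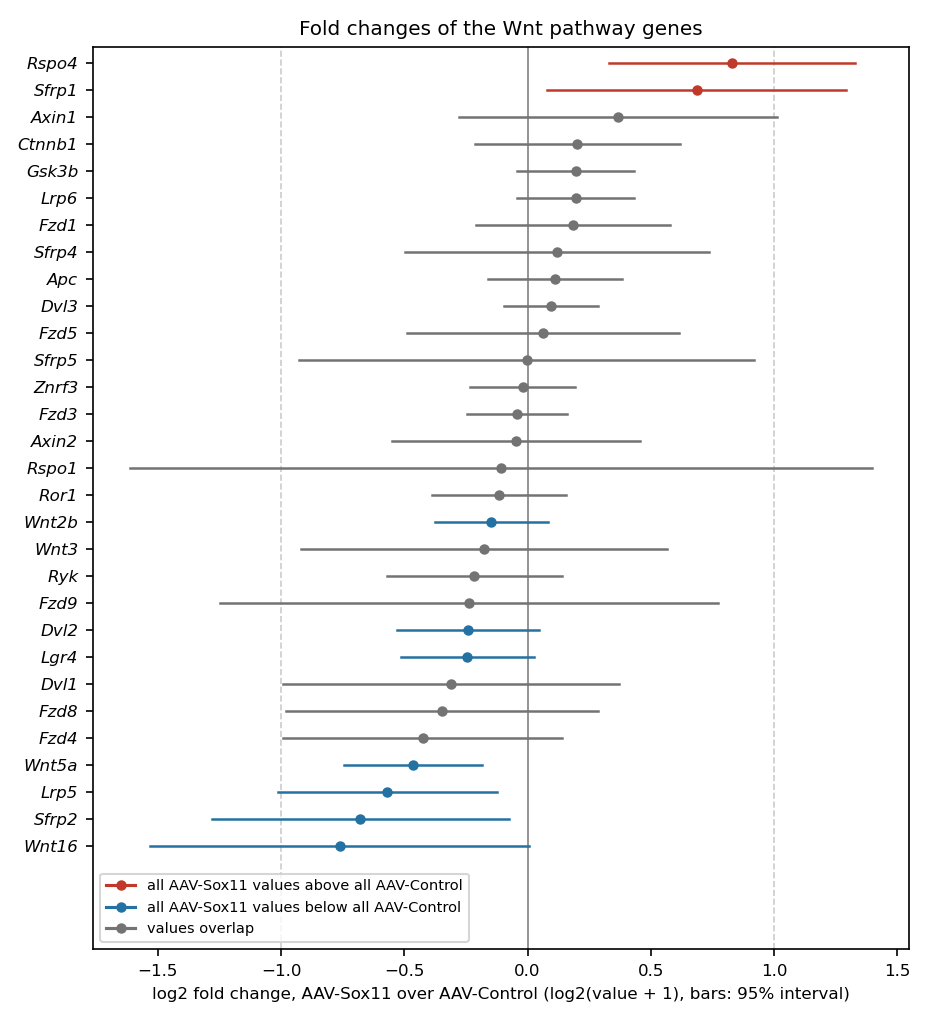
log2 fold change of each member, AAV-Sox11 over AAV-Control, on the log2(value + 1) scale, with its 95% interval from the limma fit. The dashed lines mark a 2-fold difference; 2 members without overlap lie on the higher side (red) and 7 on the lower side (blue), and 22 of 30 intervals stay within 2-fold.

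How much change the data could have held was read from the intervals. For 22 of 30 members the 95% interval of the fold change lay within 2-fold in both directions. The exceptions were Rspo4, Sfrp1, Axin1, Lrp5, Sfrp2, Wnt16, Rspo1 and Fzd9, most of them low genes. Standard errors ran from 0.08 for Dvl3 to 0.64 for Rspo1. Of all 15450 genes, 11333 had intervals within 2-fold. Spread along the removed direction is missing from these intervals too, so they may be too narrow.

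Levels between genes were compared per kilobase of annotated transcript (GENCODE M21), summed over the rows of each gene. Gsk3b had 1720 ± 152 per kb in AAV-Sox11 libraries and 1517 ± 103 in AAV-Control libraries. Apc had 1571 ± 108 in AAV-Sox11 libraries and 1547 ± 282 in AAV-Control libraries. Summed over all rows, these top 2 did not differ beyond their spread. Protein-coding rows gave 97.1% of the summed Gsk3b value but 63.3% of that of Apc. A retained-intron row of Apc (2732 bases) had a mean of 2103, and its main protein-coding row (12346 bases) had 3901. Per kb the shorter row therefore counts for more, and levels on protein-coding rows alone were not compared. Lrp6 came next with 403 ± 32.1 per kb in AAV-Sox11 libraries and 354 ± 34.8 in AAV-Control libraries, ahead of Fzd3 with 252 ± 17.7 in AAV-Sox11 libraries and 272 ± 27.5 in AAV-Control libraries. Ryk, Lgr4, Dvl3 and Znrf3 followed within 197 to 230 per kb in AAV-Sox11 libraries and within 204 to 249 per kb in AAV-Control libraries. Short non-coding rows carry much of the per-kb value of Ryk and Lgr4, of whose summed values 17.6% and 25.1% came from protein-coding rows. Among ligands, Wnt2b had 142 ± 3.06 per kb in AAV-Sox11 libraries and 158 ± 14.4 in AAV-Control libraries, above Wnt5a with 41.1 ± 1.503 in AAV-Sox11 libraries and 57.0 ± 7.16 in AAV-Control libraries. Ctnnb1 had 49.4 ± 10.2 per kb in AAV-Sox11 libraries and 47.0 ± 9.93 in AAV-Control libraries, well under Gsk3b and Apc, and this rests on 3 rows of 15 annotated transcripts. Sfrp2 was the highest secreted inhibitor over all 6 libraries, with 24.6 ± 3.19 per kb in AAV-Sox11 libraries and 40.9 ± 13.7 in AAV-Control libraries. In AAV-Sox11 libraries alone Sfrp1 (29.6 ± 2.38 per kb) and Sfrp4 (27.4 ± 3.35 per kb) were above it. By the mean of all 6 libraries the lowest members were Wnt3 and Wnt16, next to Fzd5, which had 6.59 ± 0.70 per kb in AAV-Sox11 libraries and 6.42 ± 1.74 in AAV-Control libraries. Wnt16 had 4.28 ± 0.40 per kb in AAV-Sox11 libraries and 7.90 ± 3.39 in AAV-Control libraries. Wnt3 had 5.48 ± 1.77 per kb in AAV-Sox11 libraries and 6.11 ± 1.31 in AAV-Control libraries, which is within the spread of Wnt16 in AAV-Control libraries.

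**Figure D4:**
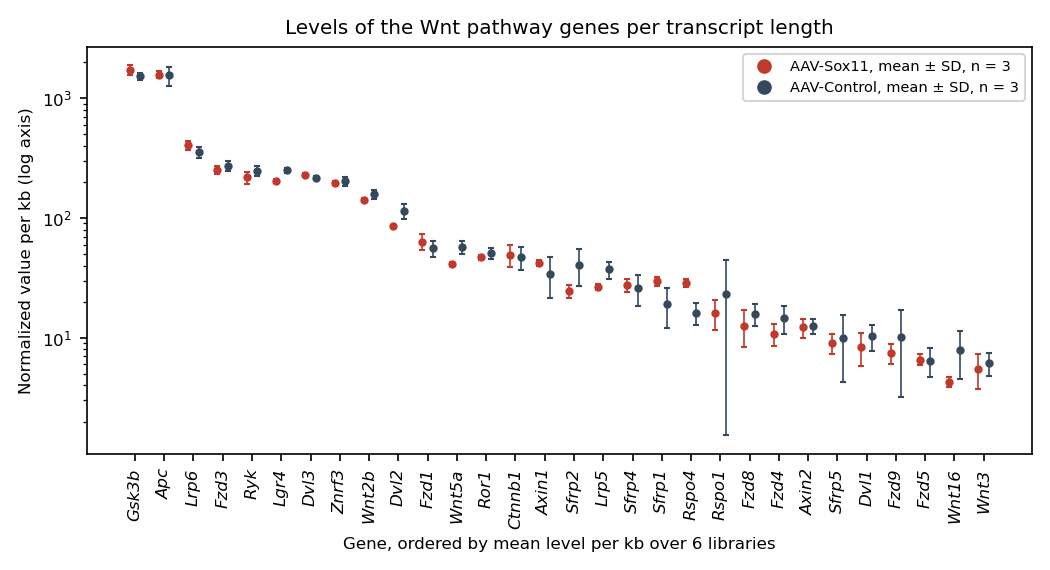
Normalized value per kilobase of transcript (log axis) for the 30 members, ordered by the mean of the 6 libraries, with AAV-Sox11 left of AAV-Control at each gene. Points are means and bars SDs of 3 libraries; Gsk3b and Apc stand above all others, and Wnt16 and Wnt3 are at the low end.

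The table lists transcripts, and 11 members held 2 or more rows. Of the 54 rows, 34 were annotated as protein coding, 12 as retained introns, 5 as processed transcripts and 3 for nonsense-mediated decay. In the authors' deposited table, 2 of the 54 rows had a false discovery rate under 0.05, against 6.83% of all rows: the Rspo4 row above and a short retained-intron row of Ryk. That Ryk row, ENSMUST00000175788, had 5.22, 6.23 and 7.04 in AAV-Sox11 libraries and 10.7, 17.7 and 18.3 in AAV-Control libraries, with a log2 fold change of -1.32 and a false discovery rate of 0.0322 in the authors' deposited table. It held 4.77% ± 1.42 of the Ryk value in AAV-Sox11 libraries and 10.03% ± 2.35 in AAV-Control libraries (SD, n = 3 each), so it weighs little in the gene. The protein-coding Ryk row had 27.1, 29.1 and 25.1 in AAV-Sox11 libraries and 34.0, 20.6 and 15.4 in AAV-Control libraries, which overlap.

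Row shares without overlap between the groups were also seen for Lgr4, Znrf3 and Lrp6. The retained-intron row of Lgr4, ENSMUST00000142869, held 22.9% ± 3.04 of the gene in AAV-Sox11 libraries and 31.0% ± 4.74 in AAV-Control libraries (SD, n = 3 each), while its processed transcript held 51.5% ± 1.39 in AAV-Sox11 libraries and 44.8% ± 3.98 in AAV-Control libraries. That retained-intron row had 38.6, 40.5 and 48.3 in AAV-Sox11 libraries and 64.1, 65.7 and 74.3 in AAV-Control libraries, while the protein-coding row overlapped, with 38.2 to 56.1 in AAV-Sox11 libraries and 29.9 to 68.0 in AAV-Control libraries. For Znrf3, whose rows are all protein coding, ENSMUST00000172492 held 67.6% ± 1.69 in AAV-Sox11 libraries and 63.0% ± 2.13 in AAV-Control libraries. For Lrp6 the protein-coding row held 99.3% in AAV-Sox11 libraries and 99.1% in AAV-Control libraries. All row shares of Apc, Ctnnb1, Dvl2, Dvl3, Fzd3, Gsk3b and Lrp5 overlapped. These shares were not tested beyond their spread. Row shares were not computed for all genes, so how common such separation is was not established.

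Outside the 30 members, 95 further genes of the pathway came from 6 lists of other components and known targets, chosen with earlier results of these data known. Of these 95, 0 rose and 2 fell in limma at an adjusted p of 0.05, against 0.796% and 1.52% of all 15450 genes. The median log2 fold change of the 95 was 0.07. Both calls, Lgr5 and Prox1, came from the list of beta-catenin target genes. With the same-day preparation as a replicate block 2 of the 95 rose and 5 fell, against 323 and 414 of all 15450 genes. Without AAV-Control B 4 rose and 6 fell, against 339 and 406 of all genes. Of the 95, 33.7% had an unadjusted p under 0.05, against 24.3% of all genes, and 40% did not overlap between the groups, against 30.7% of all genes.

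Lgr5, a target gene and R-spondin receptor that in the retina marks a set of amacrine cells, had 3629, 3522 and 3634 in AAV-Sox11 libraries, against 6657, 6206 and 6612 in AAV-Control libraries. The groups were far apart and tight, with a log2 fold change of -0.85 ± 0.07 (SE, limma adjusted p = 0.0113). Prox1, a homeobox factor of horizontal and AII amacrine cells, had 6358, 6476 and 7039 in AAV-Sox11 libraries, against 11695, 10448 and 11102 in AAV-Control libraries (log2 fold change -0.74 ± 0.08, adjusted p = 0.0153). Neither Lgr5 nor Prox1 passed when an AAV-Sox11 library was left out (adjusted p = 0.0630, 0.112 and 0.0683 for A, B and C, for both genes), and neither passed with the removed direction or the sex index as a covariate. In those 5 fits 0 of all genes were called. Over all alternative fits the log2 fold change stayed between -0.92 and -0.82 for Lgr5 and between -0.81 and -0.70 for Prox1. Prox1 also stands in the horizontal cell list, of which 4 of 7 genes were measured. The list summed to between 7105 and 7925 in AAV-Sox11 libraries and to between 11209 and 12533 in AAV-Control libraries. Without Prox1 it summed to between 746 and 886 in AAV-Sox11 libraries and to between 761 and 914 in AAV-Control libraries. That sum holds only Tpm3, Calb1 and Onecut1. Tpm3 was the largest part, with 510 ± 35.9 in AAV-Sox11 libraries and 490 ± 116 in AAV-Control libraries (SD). Amacrine genes (11 of 12 measured) summed to between 30496 and 39466 in AAV-Sox11 libraries and to between 20201 and 33745 in AAV-Control libraries.

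Of the 20 measured beta-catenin target genes, which include the members Axin2 and Znrf3, 0 rose and 2 fell, against 0.796% and 1.52% of all genes. The median log2 fold change of the 20 was -0.35, with 6 genes above 0 and 14 below. Without AAV-Control A the median was 0.0061. Nkd1, a feedback inhibitor like Axin2, had 18.8, 17.7 and 14.1 in AAV-Sox11 libraries and 49.5, 27.5 and 21.2 in AAV-Control libraries and did not pass. Apcdd1, a membrane inhibitor that is itself a target, had 99.0, 92.4 and 88.5 in AAV-Sox11 libraries and 162, 134 and 140 in AAV-Control libraries (log2 fold change -0.63 ± 0.14, adjusted p = 0.0627). Nrcam (log2 fold change 0.56 ± 0.13, limma adjusted p = 0.0630) and Tiam1 (0.53 ± 0.18, 0.128) were higher in AAV-Sox11 libraries without overlap. Of the 20 target genes, 2 were higher and 6 lower without overlap (40%), against 30.7% of all genes.

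In the other 5 lists, 0 genes rose and 0 fell over all libraries, against 0.796% and 1.52% of all genes. The secretion and co-receptor list had 10 measured genes and a median log2 fold change of -0.07, among them Norrin (Ndp), with 153 ± 8.98 in AAV-Sox11 libraries and 140 ± 52.9 in AAV-Control libraries (SD, n = 3 each). Other secreted inhibitors had 4 measured genes and a median of 0.16. The destruction complex and cytoplasmic list had 23 and a median of 0.12, the nuclear co-factors 20 and 0.14, and the planar polarity and calcium list 21 and 0.13. The smallest adjusted p-values of these lists were those of Bcl9 (0.0511), a co-activator of beta-catenin, Prickle2 (0.0536), a planar polarity protein, Camk2b (0.0543), a calcium-dependent kinase, and Tbl1xr1 (0.0550). Bcl9 had 420, 391.5 and 403 in AAV-Sox11 libraries, against 688, 530 and 616 in AAV-Control libraries. With the replicate block, Bcl9 (adjusted p = 0.0381), Prickle2 (0.0399) and Camk2b (0.0343) were lower and Tbl1xr1 (0.0359) and Daam1 (0.0339), a formin of the planar polarity branch, higher in AAV-Sox11 libraries.

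**Figure D5:**
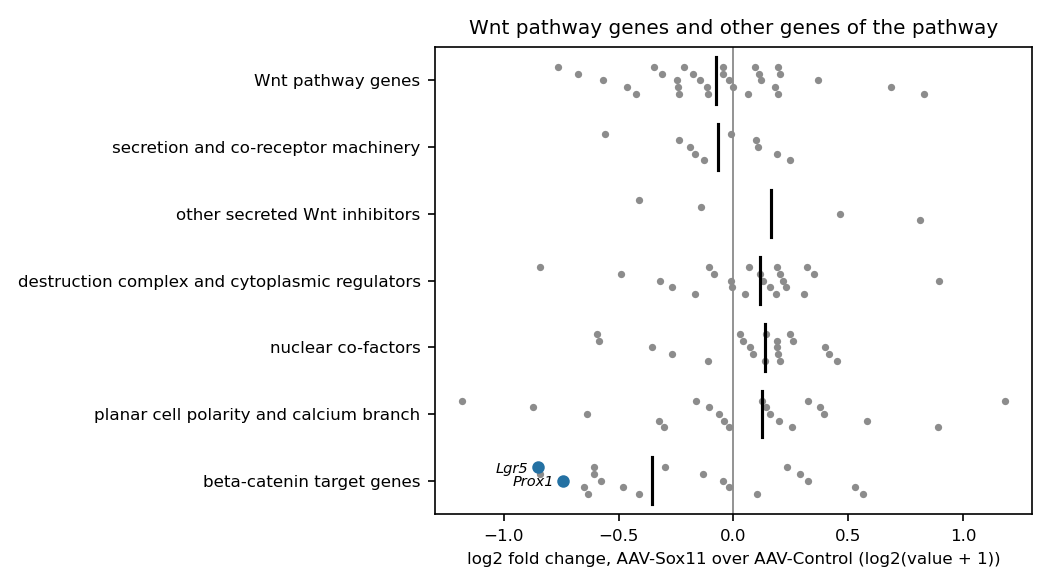
log2 fold change, AAV-Sox11 over AAV-Control, of each gene of the Wnt pathway set and of 6 further lists, on the log2(value + 1) scale. Grey points did not pass an adjusted p of 0.05, the blue points Lgr5 and Prox1 did, and black bars are medians, from -0.35 for target genes to 0.16 for other secreted inhibitors.

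Beside the members whose values lay lower, the bipolar cell markers also had lower sums without overlap, at 6938 to 7973 in AAV-Sox11 libraries and 8468 to 15089 in AAV-Control libraries, for 11 of 12 listed genes. The highest sum was that of AAV-Control A, against 8468 and 9445 in AAV-Control B and C. Prkca alone had 5580 ± 302 in AAV-Sox11 libraries and 5844 ± 521 in AAV-Control libraries (SD), with overlap. In limma 0 of the 11 genes were called. Müller glia genes overlapped, at 45092 to 53372 in AAV-Sox11 libraries and 34254 to 60612 in AAV-Control libraries. The part of cell composition in the Wnt5a, Lrp5, Sfrp2, Wnt16, Lgr4, Dvl2 and Wnt2b values was not tested.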

How the data were processed

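RNA of Thy1-sorted cells was measured in 3 AAV-Sox11 and 3 AAV-Control libraries. Per the submitters' processing notes, the build was mm10 and the tools included CASAVA 1.8.2 and edgeR. Aligner, counter, strand setting and annotation release were not given in the sources used here. A single table was deposited, with 26691 transcript rows, of which 357 without a gene name were left out. Its whole-number columns are a score, adjusted values from which a direction across libraries had been removed, per the values the authors deposited. The normalized columns, a signal deposited by the authors, equal these times 1 factor per library (0.965 to 1.04). The authors' deposited log2 fold changes and p-values are named as theirs. The 6 per-library ratio columns were not used. Totals stand for depth only approximately.

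Normalized values were summed per gene name to 15450 genes. limma 3.58.1 (R 4.3.3, trend, no covariate) was fitted on log2(value + 1), which understates changes of low genes, with Benjamini-Hochberg adjustment over all genes. It was also run on simulated data, with independent values and changes only in genes above the median level. That simulation held neither the missing direction nor the same-day pairs, so it cannot speak for these or for low genes. Errors of fold changes are standard errors. Labels do not say that libraries came from independent viral preparations, so p-values measure the spread between pools of animals. Members and lists were chosen with earlier results of these data known. Values per library are given for the 16 members with the smallest unadjusted p, the most abundant member of each role per length and Ctnnb1, Axin2 and Gsk3b. Other genes whose libraries are given one by one (Apc, Rspo1, Nkd1, Apcdd1, Bcl9) or that are named from the lists without passing were chosen after their values were seen. Motif shares and per-kb levels came from RefSeq promoters and GENCODE M21 lengths (26103 rows matched). The series description pairs AAV-Control and AAV-Sox11 preparations by day; deviations of same-letter libraries from their group means correlated at 0.0025, 0.79 and 0.24 for A, B and C. Alternatives were the replicate block, pseudocounts, a filter, scalings, the most abundant row per gene, variance settings, 2 covariates, each library left out and, chosen after seeing the data, protein-coding rows only.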

Additional observations from a re-analysis of the deposited data

How the results depend on the processing

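No member was called in 18 of 19 alternative fits, and 1 was called lower (Wnt5a) without AAV-Control B. Leaving out each library in turn gave 0 to 0 members higher and 0 to 1 lower, and with the replicate block 0 members passed, with a lowest adjusted p of 0.0637. The replicate block changed no member call. Over all genes, 123 were higher and 235 lower; the replicate block gave 323 and 414, no trend 57 higher, upper-quartile scaling 355 and library total alone 356 lower, and protein-coding rows only 117 lower. Both covariates gave 0 and 0, where 2582 (removed direction) and 2702 (sex index) genes had an unadjusted p under 0.05. Leaving out 1 library gave 0 to 339 higher and 0 to 406 lower; each AAV-Sox11 library left out (A, B, C) gave 0 calls, where 3120, 1942 and 2953 genes were under an unadjusted 0.05, and each AAV-Control library 51, 339 and 185 higher. With upper-quartile scaling 21.98% of calls were higher, against 34.4%, with library total alone 22.4%, with no trend 25.1% and the replicate block 43.8%.

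For the 95 other pathway genes (0 higher, 2 lower; a count added after seeing the data), the replicate block gave 2 higher and 5 lower, upper-quartile scaling and library total alone 6 lower, both covariates 0, and leaving out 1 library 0 to 4 higher and 0 to 6 lower. Of 397 comparisons of 21 named genes with an alternative, 379 kept direction and side of the threshold, 10 lost a call (Lgr5 and Prox1, 5 each), 1 gained one and 7 reversed: Axin2 was 0.10 without AAV-Sox11 A and 0.05 without AAV-Control B (leave-one-out range -0.16 to 0.10), Dvl3 -0.0013 and Ryk 0.28 with protein-coding rows only, Ryk 0.076 with its most abundant row, Fzd3 0.0040 without AAV-Control A (range -0.11 to 0.0040), and Gsk3b -0.030 with the sex index. None of these passed, and the cause was not tested. The sex index is the mean log2 value of Y-linked genes minus that of Xist. What depth limits in low members such as Wnt16, Wnt3 and Sfrp5 was not tested.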
